A study of Mus musculus with 2 samples.

Results

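The genes of the proteasome were followed in testes of 17 day old mice, on 1 oligonucleotide array for wild type and 1 for UBR2-/-. They were taken as every gene whose symbol names a proteasome subunit, activator, inhibitor or assembly chaperone (the Psma, Psmb, Psmc, Psmd, Psme, Psmf and Psmg series), and 46 of the 12393 genes on the arrays met this rule, through 83 probe sets. A probe set is a group of short probes that together give the signal of a transcript. Of the 46 genes, 44 had a mean signal at or above the floor of 24.55 used here to tell dim signals apart, and these 44 were compared. Psmb11, Psme2 and Psme2b had no probe set of their own among those used and were not analysed here.

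Both groups were whole testes of mice of mixed 129SV and C57BL strain, one group wild type and the other lacking UBR2, a ubiquitin ligase that recognises the first amino acid of its target proteins. The labels name 2 testes from different mice of a litter for each genotype and 1 array each (n = 1). Whether the tissue was pooled, and which part of Ubr2 is missing, is stated in none of the sources used here. With 1 array per genotype no test exists and no replicate spread can be given, so every difference below describes these arrays. Ubr2 itself, read by 1 probe set, gave 57.2 in wild type and 14.3 in UBR2-/-, the latter under the UBR2-/- floor of 24.7.

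The proteasome is the large protease that destroys proteins tagged with ubiquitin. Its core particle, called 20S, is a barrel of outer alpha rings, which form the gate, and inner beta rings, which hold the cutting sites. A regulatory cap, called 19S, binds ubiquitin chains, removes them and feeds the protein into the barrel with a ring of ATPases. Other caps, such as PA28 and PA200, open the gate without using ATP. Male germ cells build a variant core in meiosis, in which PSMA8 takes the place of the alpha subunit PSMA7, and PA200 is the activator best known from spermatogenesis.

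Among the proteasome genes, 1 stood apart from the rest. Psma8, the germ cell alpha subunit, was 2.64-fold lower on the UBR2-/- array. By their brightest probe sets, the other 43 compared genes lay within 1.5-fold of the wild type array. A second probe set of Psmb4 was 1.76-fold lower. At the threshold of 2-fold, 1 of the 44 was lower and 0 were higher, where over all 8091 compared genes 3.52% were at least 2-fold lower and 0.346% at least 2-fold higher. A share of 1 in 44 is near that background. Within 1.5-fold in either direction lay 43 of the 44, against 88% of all compared genes. Most proteasome genes were bright, and bright probe sets scatter less: of the 38 with a mean signal of at least 200, 37 lay within 1.5-fold, against 92% of the 3704 compared genes that bright. Under scaling to spike-in controls, described below, 3 further genes passed 1.5-fold, Psmc3, Psme4 and Psmd8, all lower. The median log2 ratio (UBR2-/- over wild type) of the 44 genes was 0.09, beside 0.07 for all compared genes, with 23 genes above and 21 below the latter.

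**Figure D1:**
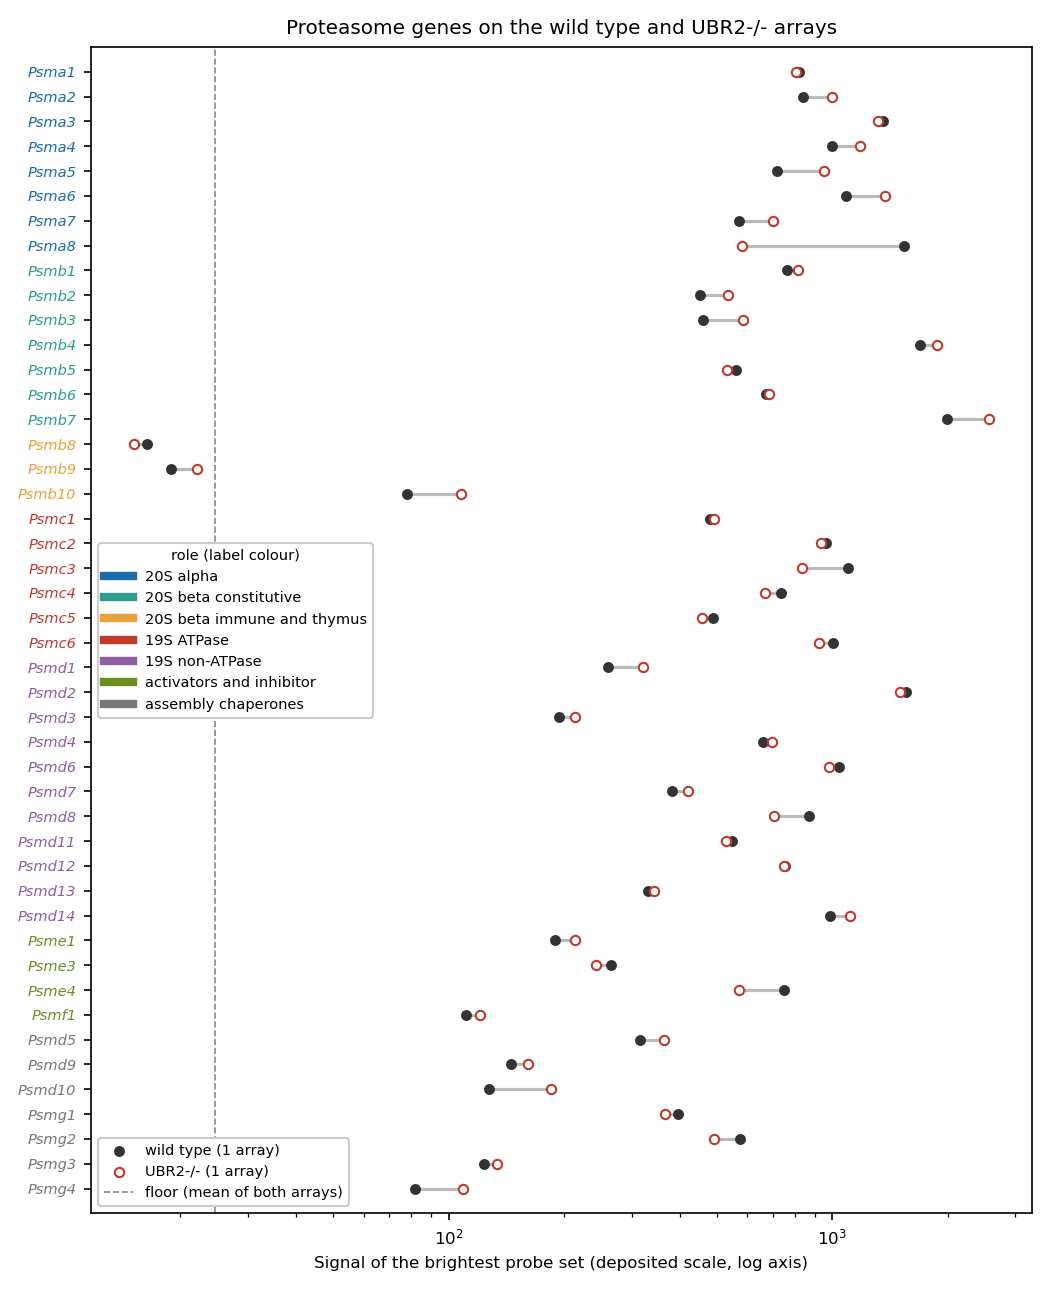
Signal of the brightest probe set of each of the 46 proteasome genes (log axis, deposited scale) on the wild type array (filled) and the UBR2-/- array (open), coloured by role, with the floor as a dashed line. The pair of points is widest for Psma8, at 1538.6 and 583.1, and Psmb8 and Psmb9 lie left of the floor on both arrays. Signals of different genes are not comparable as levels.

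**Figure D2:**
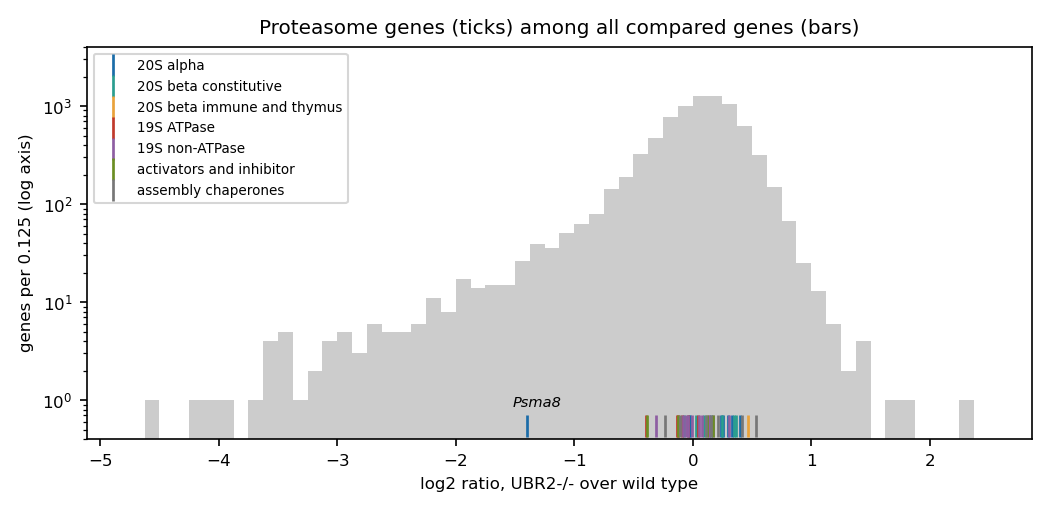
Log2 ratios (UBR2-/- over wild type) of all 8091 compared genes as bars (number of genes, log axis) and of the 44 compared proteasome genes as ticks coloured by role. All ticks but that of Psma8, at -1.40, lie between -0.40 and 0.53.

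The size of these ratios was set against the disagreement between probe sets of the same gene. Over 2894 genes with several probe sets, the log2 ratio of a lone probe set had an SD of 0.27 in the dim, 0.20 in the intermediate and 0.15 in the bright class, the last beginning at a mean signal of 208.75. This SD leaves out error between arrays and between animals. For the 16 proteasome genes with several probe sets above the floor on both arrays, the distance between the highest and lowest log2 ratio had a median of 0.13, and in 10 of the 16 all probe sets had the same sign. It was above 0.5 in 1 gene, Psmb4. Of the 68 proteasome probe sets above the floor on both arrays, 1 was at least 2-fold lower, that of Psma8, and 0 were at least 2-fold higher.

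The deposited arrays had been scaled to a common mean. On that scale 26 of the 44 proteasome genes lay above 0 and 18 below, where 58.9% of all compared genes lay above 0 and 41% below. The 42 probe sets for added bacterial and phage control transcripts had a median log2 ratio of 0.35, and scaling on them would place 5 of the 44 above 0 and 39 below. A small ratio above 0 is therefore given below by its place relative to all genes, which had a median of 0.07 on the deposited and -0.28 on the spike-in scale.

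The comparison of Psma8 with Psma7, the subunit it replaces in germ cells, showed opposite signs. Psma8 had a signal of 1538.6 in wild type and 583.1 in UBR2-/-, a log2 ratio of -1.40 from 1 probe set. Psma7 had signals of 572.4 and 702.5 in its brightest probe set (log2 ratio 0.30) and 448 and 568.8 in its other one (0.34). The log2 ratio of Psma8 was thus lower than that of Psma7 by a difference of -1.70, a 3.24-fold shift of Psma8 against Psma7. Under spike-in scaling Psma7 itself lay at -0.06 and Psma8 at -1.75, so the sign of Psma7 turned. The distance between both cannot change under such scaling. Of the 8091 compared genes 153 had a lower log2 ratio than Psma8. The next lowest proteasome gene, Psmc3, was at -0.40.

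Markers of late spermatocytes were lower too, most of them further than Psma8. Of 14 compared genes of pachytene and later germ cells, the stage at which PSMA8 is made, 12 were at least 2-fold lower in UBR2-/- and 0 higher, with a median log2 ratio of -2.22. Their summed signal was 11125.8 in wild type and 2509.6 in UBR2-/-. Such sums, here and below, are weighted to the brightest probe sets, such as Ldhc at 3709.3 and 430.5, and do not count cells. Pgk2, Adam3, Acr and Ccna1 were below the floor on the UBR2-/- array. Theg was below it on both arrays and was not compared. The ratio of Psma8 lay between those of Crisp2, a sperm protein, at -3.90 and Hspa2, a chaperone of late spermatocytes, at -0.90. In whole testes fewer cells of a type and less RNA per cell cannot be told apart, and the part of cell composition in the result for Psma8 was not tested. Genes of early meiotic prophase were nearer to 0: of 11 compared, 1 was at least 2-fold lower, Spo11, and the median was -0.06, with Sycp1 and Sycp3 of the synaptonemal complex at -0.11 and 0.02. Their summed signal was 9927.5 in wild type and 9536.4 in UBR2-/-.

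**Figure D3:**
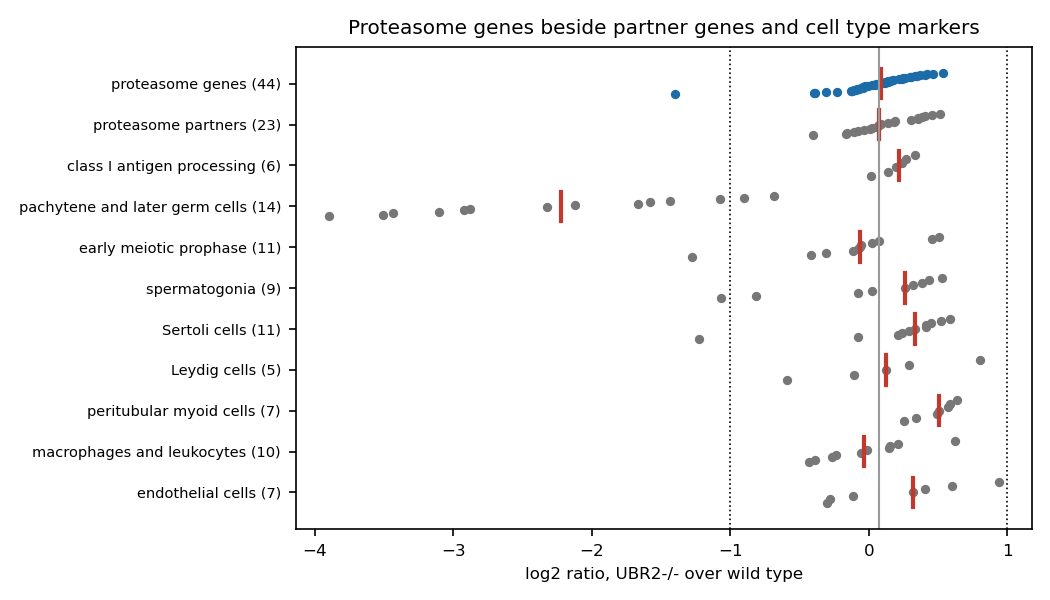
Log2 ratios (UBR2-/- over wild type) of single genes (points) and their median (red bar) for the 44 compared proteasome genes, their functional partners and marker genes of testis cell types, with the number compared in brackets. The grey line is the all-gene median and the dotted lines are 2-fold. By brightest probe sets, as drawn here, Psma8 is the 1 proteasome gene in the range of the pachytene and later germ cell markers.

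Most of the ordinary alpha subunits lay above the all-gene median, by their brightest probe sets. Of Psma1 to Psma7, 5 were above it and 2 below, and their own median was 0.26. With the mean over probe sets 4 of 7 were above the all-gene median. The share over all compared genes is 50% by definition, for these counts and those of the other roles below. With 7 genes, 5 is not far from that share. Psma5 had signals of 718.3 and 949.7 (log2 ratio 0.40), Psma2 had 836.9 and 1000.7 (0.26) and Psma4 had 1001 and 1180.6 (0.24). These alpha subunits are found in every proteasome and carry no cutting site. Psma1, at 818.6 and 803.4, and Psma3, at 1351.7 and 1319.5, were nearly equal on both arrays, each with a log2 ratio of -0.03. Psma6 was less certain, since its brightest probe set had 1086.6 and 1368 (0.33) and its 3 others ran from -0.15 to -0.03. Psma5 too had a second probe set closer to 0, at 0.11.

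Of the beta subunits of the ordinary core 5 of 7 were above the all-gene median by their brightest probe sets, with a median of 0.15. With the mean over probe sets 3 of 7 were, and their median of 0.025 lay below the all-gene median of 0.058. Psmb7, which carries the trypsin-like site, had signals of 1990.3 and 2564.7 (log2 ratio 0.37). Psmb6, with the caspase-like site, had 671.9 and 683.5 (0.02), and Psmb5, with the chymotrypsin-like site, had 559.9 and 532.3 (-0.07). The 3 catalytic subunits, which sit in the same ring, thus covered the whole range of the 7. Of those with no cutting site, Psmb3 had 460.6 and 586.6 in its brightest probe set (0.35) and 0.46 in the other, Psmb2 had 452.1 and 536.2 (0.25) and Psmb1 had 760.6 and 813.8 (0.10). Psmb4 was the member on which probe sets disagreed most. Its brightest probe set had 1688.3 and 1877 (0.15), and its other, of a type that can bind several transcripts, had 860 and 489.6 (-0.81).

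The immune forms of the catalytic subunits replace the ordinary ones in immunoproteasomes, which interferon induces for antigen presentation. Psmb8 had signals of 16.4 in wild type and 15.1 in UBR2-/-, and Psmb9 had 18.9 and 22.1, all below the floors of 24.4 and 24.7, so no ratio is given for either. Psmb10 was above the floor at 77.8 and 107.4, with a log2 ratio of 0.47, and 710 of the 8091 compared genes had a higher one. Spike-in scaling took it to 0.11. The peptide transporter genes Tap1 and Tap2, neighbours of Psmb8 and Psmb9 in function, were also below the floor on both arrays. Of 6 compared genes of class I antigen processing 0 were beyond 2-fold and the median was 0.22, with B2m at 0.33, Irf1 at 0.27 and Tapbp at 0.14. Of 10 compared leukocyte and macrophage genes 0 were beyond 2-fold and 4 lay above the all-gene median, with a median of -0.04 and a summed signal of 760.3 in wild type and 716.7 in UBR2-/-. With 3.52% of all compared genes at least 2-fold lower and 0.346% at least 2-fold higher, 0 is near the background for lists this short.

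All 6 ATPases of the cap lay below the all-gene median, 5 of them also below 0 on the deposited scale, and their median was -0.11. Psmc3 was the farthest, with signals of 1096.4 and 832.5 (log2 ratio -0.40, 1.32-fold lower) from 1 probe set. Psmc4 had 732.8 and 669.4 (-0.13), with -0.04 in its other probe set, and Psmc6 had 1007.1 and 925.7 (-0.12), with 3 probe sets from -0.12 to -0.10. These proteins form the ring that unfolds the substrate, and Psmc3 has one of the tails that dock into the alpha ring. Psmc5 had 487.4 and 456.6 (-0.09), Psmc2 had 961.4 and 933.8 (-0.04), and Psmc1 had 478.7 and 493 (0.04).

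The other subunits of the cap were spread around the all-gene median, with 5 of 11 above it, 6 below and a median of 0.05. Psmd8, a subunit of the lid, was the lowest, with signals of 871.1 and 703.4 (log2 ratio -0.31). Psmd1, which with Psmd2 forms the scaffold of the base, was the highest, with 260.4 and 321.3 (0.30), while Psmd2 had 1560.6 and 1499 (-0.06). Psmd14, the enzyme that cuts ubiquitin chains off the substrate, had 985.8 and 1110 (0.17). Its partner Psmd7 was close to it, with 381.6 and 419.5 (0.14). The ubiquitin receptor Psmd4 had 660.2 and 695.4 (0.07), with its 3 probe sets from -0.09 to 0.07. The remaining lid subunits lay close together, with Psmd3 at 0.14, Psmd13 at 0.05, Psmd12 at -0.01, Psmd11 at -0.04 with 4 probe sets from -0.14 to 0.03, and Psmd6 at -0.09.

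Set side by side, core and cap differed in their place relative to all genes. The 14 ordinary core subunits had a median log2 ratio of 0.24, with 10 above the all-gene median and 4 below, and the 17 cap subunits had a median of -0.04, with 5 above and 12 below. By definition 50% of all compared genes lie above that median. The distance between both medians was 0.28. It was noticed after the values were seen, and without replicates it has no test. With the mean over probe sets, which also takes in those at the floor, the distance was 0.12. There 7 of the 14 core subunits lay above the all-gene median, the share of all genes. Without probe sets that can bind several transcripts the distance was 0.29, over 23 of these genes. The place of the core above the all-gene median thus depends on the probe set chosen. Of the marker genes of 2 somatic cell types, 9 of 11 Sertoli cell genes and 7 of 7 peritubular myoid genes lay above the all-gene median. Their own medians were 0.34 and 0.50. Summed signals were 9218.1 in wild type and 11882.9 in UBR2-/- for the Sertoli cell genes, and 2564.4 and 3684.9 for the myoid genes. Spermatogonia, Leydig and endothelial genes had medians of 0.26 over 9, 0.12 over 5 and 0.32 over 7 genes, with 5, 3 and 4 of them above the all-gene median. Single members went far the other way, such as Amh of the Sertoli list at -1.23 and Id4 of the spermatogonia list at -1.07. The part of any of these cell types in the values of the core and cap was not tested.

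**Figure D4:**
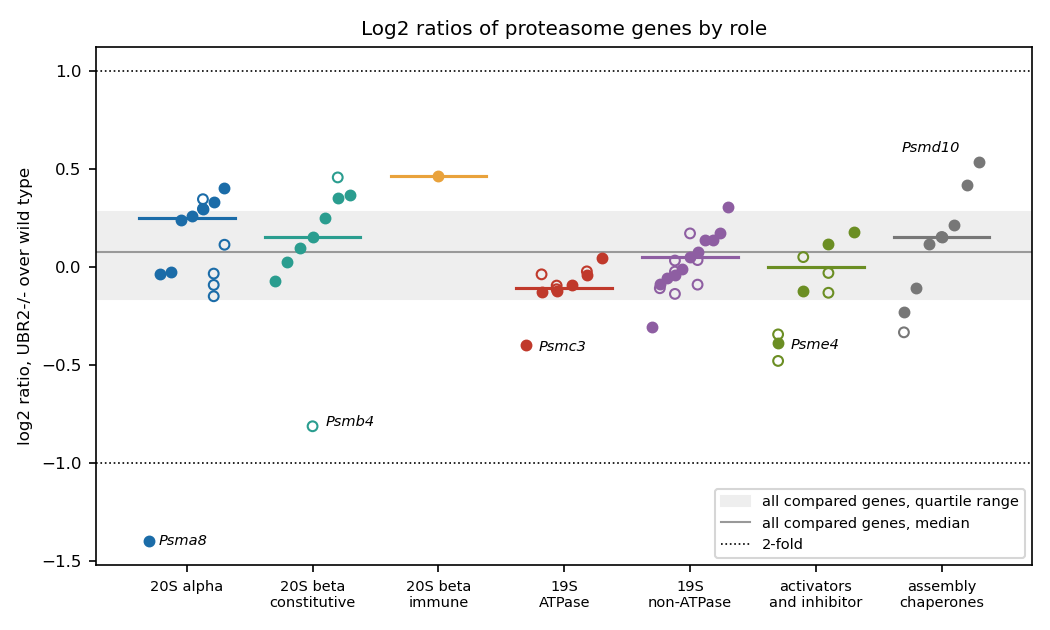
Log2 ratios (UBR2-/- over wild type) of proteasome genes by role, with the brightest probe set of each gene filled, its other probe sets above the floor open, and the median of each role as a bar. The grey line and band are the median and quartiles (0.07, -0.17 and 0.28) of all compared genes. The ATPases all lie below the grey line, and the second probe set of Psmb4 lies far from its first.

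Of the activators, Psme4 was the one farthest from 0. It encodes PA200, which is needed for full male fertility and has been tied to the breakdown of acetylated histones in spermatids. Its brightest probe set had signals of 747.3 in wild type and 571.3 in UBR2-/-, with a log2 ratio of -0.39 (1.31-fold lower). The other probe sets had 649.6 and 511.6 (-0.34) and 337.2 and 241.8 (-0.48), so all 3 were lower on the UBR2-/- array. Of all compared genes 1033 had a lower log2 ratio, so Psme4 was not extreme among genes as Psma8 was. Psme1, a subunit of the PA28 cap that interferon induces, had 189.4 and 213.8 (0.17). Psme3, the nuclear form of PA28, had 264.5 and 242.5 (-0.13), with 0.05 in its other probe set above the floor, and Psmf1, the inhibitor PI31, had 110.9 and 120.4 (0.12) with 3 probe sets from -0.13 to 0.12. The median of these 4 genes was -0.0034.

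The assembly chaperones went both ways, with 5 of 7 above the all-gene median. Psmd10, also called gankyrin, which helps to build the base of the cap, had signals of 127.6 and 184.6 and the highest log2 ratio of the 44 genes, 0.53 (1.45-fold higher), from 1 probe set. It is the 1 proteasome gene on the X chromosome, and the 274 compared X-linked genes had a median of 0.35, against 0.06 for 7803 autosomal genes. Of the X-linked genes 208 lay below Psmd10. The other chaperones of the base, Psmd5 and Psmd9, had 314.6 and 365.1 (0.21) and 145.2 and 161.3 (0.15). The chaperones of the alpha ring work in pairs, given here in turn. Psmg1 had 395 and 366.6 (-0.11) and its partner Psmg2 had 576.1 and 490.9 (-0.23), with -0.33 in its other probe set. Psmg3 had 123.4 and 133.6 (0.11) and its partner Psmg4 had 81.6 and 108.9 (0.42), each from 1 probe set of intermediate signal.

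Genes that work with the proteasome lay within 2-fold by their brightest probe sets. Of 31 such genes listed, 23 had a probe set and all 23 were compared, with 0 beyond 2-fold in either direction, 12 above the all-gene median, 11 below and a median of 0.08. Over all compared genes 3.52% were at least 2-fold lower and 0.346% at least 2-fold higher, so 0 of 23 is near that background. Pomp, which helps to build the beta ring, had signals of 758.3 and 990.1 (log2 ratio 0.38). Nfe2l1, a transcription factor that raises proteasome genes when the proteasome fails, had 189 and 250.5 (0.41), and its relative Nfe2l2 had 338.6 and 464.7 (0.46). Both factors lay above most genes. Ngly1, the enzyme that activates the Nfe2l1 protein, was the lowest of the 23, with 336.6 and 254.3 (-0.40), and Nsfl1c, a cofactor of VCP, the highest with 570.3 and 813.1 (0.51). VCP, which pulls ubiquitin-tagged proteins out of complexes, had 0.13, and the cofactor genes Nploc4 and Ufd1 had -0.11 and -0.04, with -0.51 in the other probe set of Ufd1. The deubiquitinases of the cap, Usp14 and Uchl5, had 0.18 and -0.15, with probe sets of Usp14 up to 0.52. The shuttle factors Ubqln1, Ubqln2 and Rad23b, which carry ubiquitin-tagged proteins to the cap, had 0.19, 0.35 and 0.02, with probe sets down to -0.02 for Ubqln1 and -0.16 for Rad23b, and Akirin2, which brings proteasomes into the nucleus, had -0.08.

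Promoters of the proteasome genes were read from RefSeq on build GRCm38.p6, in the 250 bases before the annotated start. A sequence was used for 38 of the 46 genes. The other 8, with Psma8 and Psmc3 among them, enter none of the proteasome gene shares or ratio comparisons by motif below. The antioxidant response element, bound by NFE2L1 and NFE2L2, was searched as TGACNNNGC on both strands, where N is any base. It was found in 5 of the 38 genes (13.2%), against 10.2% of 32817 promoter windows of all genes and 13.9% of 6654 compared genes with a sequence. The interferon-stimulated response element was searched on both strands as a pair of GAAA blocks with any 2 bases between them and found in 3 of 38 genes (7.89%), against 2.97% of all windows and 3.08% of compared genes. The CCAAT box of NF-Y was found in 13 of 38 (34.2%), against 33.8% of all windows and 41.2% of compared genes. Such a match is a description of the letters. Shown are the windows of the brightest gene of each role that holds either of the first 2 elements, 5′ to 3′ on the strand of the gene, with the matches in capitals.
Psmc6, chr14:45329574-45329823, + strand: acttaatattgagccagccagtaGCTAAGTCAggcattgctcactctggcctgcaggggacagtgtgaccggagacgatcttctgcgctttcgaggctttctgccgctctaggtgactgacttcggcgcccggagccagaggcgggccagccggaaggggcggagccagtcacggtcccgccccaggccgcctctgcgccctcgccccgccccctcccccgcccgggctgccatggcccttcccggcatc
Psmd12, chr11:107479278-107479527, + strand: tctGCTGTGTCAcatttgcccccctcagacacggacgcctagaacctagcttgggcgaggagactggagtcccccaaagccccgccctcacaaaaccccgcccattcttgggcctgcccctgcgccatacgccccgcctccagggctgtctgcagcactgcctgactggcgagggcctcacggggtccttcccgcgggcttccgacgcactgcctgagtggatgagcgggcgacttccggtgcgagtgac
Psmb6, chr11:70525107-70525356, + strand: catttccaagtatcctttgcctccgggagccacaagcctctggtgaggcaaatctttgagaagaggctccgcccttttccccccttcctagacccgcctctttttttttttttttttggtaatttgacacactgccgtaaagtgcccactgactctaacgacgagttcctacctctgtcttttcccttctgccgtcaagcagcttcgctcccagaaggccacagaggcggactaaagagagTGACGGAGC
Psmd9, chr5:123227940-123228189, + strand: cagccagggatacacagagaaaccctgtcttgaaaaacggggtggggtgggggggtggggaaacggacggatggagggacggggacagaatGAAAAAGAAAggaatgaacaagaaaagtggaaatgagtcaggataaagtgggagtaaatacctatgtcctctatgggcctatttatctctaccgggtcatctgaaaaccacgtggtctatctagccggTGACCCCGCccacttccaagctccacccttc

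The match in Psmc6 ends 219 bases and that in Psmd12 239 bases before the start, while that in Psmb6 ends at the base before it. Psmd9 holds both elements. These 4 genes had log2 ratios of -0.12, -0.01, 0.02 and 0.15. The 5 compared genes with the antioxidant response element ran from -0.12 to 0.15, with a median of -0.0096, and the 31 without it from -0.39 to 0.53, with a median of 0.11, so the ranges overlapped.

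A motif of the ETS family of transcription factors was added after the sequences had been seen. Its core, searched as CTTCCGG on both strands, was found in 12 of 38 proteasome genes (31.6%), against 6.90% of all windows and 17.3% of compared genes. In these windows 0 matches overlapped a match of another of the 4 motifs. The matches were spread over most roles: Psma6 among alpha subunits, Psmc1, Psmc2 and Psmc6 among ATPases, Psmd2, Psmd4, Psmd6, Psmd11 and Psmd12 among other cap subunits, Psme3, Psme4 and Psmg1. The 12 genes had a median log2 ratio of -0.05 (from -0.39 to 0.33) and the 24 compared genes without it 0.16 (from -0.31 to 0.53), again with overlap. Of the 12, 8 are cap subunits, where 17 of all 46 proteasome genes are, with or without a sequence. A link of the motif to the cap or to the ratios was not tested. The stretches below show 1 match for each role that has one, with the core in capitals and 15 bases on either side.
Psma6, chr12:55398678-55398714, + strand: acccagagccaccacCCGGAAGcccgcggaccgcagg
Psmc1, chr12:100110159-100110195, + strand: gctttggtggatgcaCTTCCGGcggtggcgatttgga
Psmd2, chr16:20651611-20651647, + strand: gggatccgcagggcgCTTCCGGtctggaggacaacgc
Psme4, chr11:30771707-30771743, + strand: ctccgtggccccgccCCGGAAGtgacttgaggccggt
Psmg1, chr16:95991008-95991044, - strand: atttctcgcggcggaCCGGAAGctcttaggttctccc

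The match lies 20 to 26 bases before the start in Psmd2, 22 to 28 in Psmc1, 47 to 53 in Psme4, 63 to 69 in Psmg1 and 126 to 132 in Psma6. In Psmd2 and Psmc1 it is on the strand of the gene and in the other 3 on the opposite strand.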

How the data were processed

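RNA was biotin-labelled and hybridised to 430A 2.0 mouse arrays of Affymetrix, per the labels' protocols. The values are deposited as intensities on a linear scale, made by the authors with MAS5 per the submitters' processing notes, with version, settings and detection calls not given in the sources used here. Both arrays had a 2% trimmed mean of 150.04, and this scaling was kept. Of 22626 probe sets that are not controls, 20380 carried 1 symbol in GEO's annotation of the platform (a dated table), and 691 with several and 1555 with none were left out, including 1 assigned to 2 proteasome genes. Names were updated through the Entrez identifier (20351 matched). Signals below the 40th percentile of their array (24.4 and 24.7) were raised to it. A gene's brightest probe set stood for it. The 8091 of 12393 genes whose mean reached 24.55 were compared as the log2 ratio of UBR2-/- over wild type, in Python 3.11.15. The number of arrays limits the precision and no test was run. The procedure was run on simulated data with planted ratios and noise per probe set. These data held no error between arrays or animals, so the run checks the calculation alone. Members, lists, thresholds and named genes were chosen with earlier results of these data known. All members may be named, and of each other list the first and farthest members or those that complete a role, where a result turns on them. Alternatives were other scalings, floors, probe set choices and thresholds.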

Additional observations from a re-analysis of the deposited data

How the results depend on the processing

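The log2 ratio of Psma8 ran from -1.75 to -1.38 and its difference from Psma7 from -1.75 to -1.68 over 10 alternatives of scaling, floor, filter and probe set choice. The difference cannot change under a common scaling factor, the floors tried or the filter, so those settings do not test it. At a threshold of 3-fold, tried on the deposited scale alone, 0 proteasome genes were lower. Psma8 at its spike-in value of -1.75 would pass it. At any threshold or setting tried, 0 were higher. Scaling to the spike-in controls took the median of the 44 genes to -0.27 and that of the alpha subunits, here all 8 with Psma8, from 0.25 to -0.10. It took that of the ordinary beta subunits to -0.20, the ATPases to -0.46 and the other cap subunits to -0.30. The activators and inhibitor went to -0.36 and the assembly chaperones to -0.20, with the all-gene median at -0.28. The mean over probe sets took the median of the same 8 alpha subunits to 0.096 and that of the ordinary beta subunits to 0.025, below the all-gene median of 0.058. The core subunits above that median went from 10 to 7 of 14. The distance of core from cap, noticed after the values were seen, went to 0.12. It was 0.29 without probe sets that can bind several transcripts, over 23 genes. Relative to all genes, 0 of 6 ATPases lay above the median under 9 of the 10 alternatives, and 1 did without a filter on low values. Scaling by a common factor can hardly move that place, and the floors tried left the ATPase ratios unchanged. Such settings therefore add little to the count. Without the filter the all-gene median was 0.018, below Psmc1 at 0.04. Of 431 values of single genes under alternatives, 381 moved by less than the SD of 1 probe set and 50 moved by more, 44 of these under spike-in scaling. Dropping the filter on low values cannot change the ratio of a compared gene, so its values count among the 381. Psma8, the 1 gene at least 2-fold off, kept its sign under all 10 alternatives. Smaller ratios did turn sign: 26 of the 44 genes lay above 0 as deposited and 5 under spike-in scaling. No paired analysis was possible because each genotype has 1 array. Signals near the floor limit what can be said of Psmb8 and Psmb9.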
